A study of Homo sapiens with 6 samples.

Results

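Stretches of the genome, named after NKX2-5, TLX3 and BCL11B, were described from H3K27ac peaks in the human cell line CCRF-CEM, derived from T lymphoblasts of a leukemia. A peak belonged to a locus when it overlapped a fixed hg19 span, chr5:172600000-172720000 for NKX2-5, chr5:170690000-170790000 for TLX3 and chr14:98400000-99760000 for BCL11B with the desert on its downstream side. The rule uses coordinates and no measured value. Over the 6 libraries, 1717 of 1440888 deposited peaks were members, 111 at NKX2-5, 54 at TLX3 and 1552 at BCL11B.

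The study profiled H3K27ac by ChIP-seq in parental cells, whose genotype the labels give as wild-type, and in cells with a knockout of SLFN11, a Schlafen family protein known to sensitise cells to drugs that block DNA replication. Both genotypes received DMSO, or the topoisomerase 1 inhibitor camptothecin at 100 nM for 2 h or for 4 h. Each of the 6 groups had 1 library, so every difference here is between libraries and has no replicate error or test. The labels do not say whether the knockout cells are 1 clone, the SLFN11 locus and T lymphoblast markers were not checked because an hg19 annotation was not used here, and a mark in fewer cells cannot be told apart from less mark per cell.

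H3K27ac, the acetylation of lysine 27 of histone H3, sits on nucleosomes around active promoters and enhancers. BCL11B encodes a zinc finger factor of T cell commitment, and the gene-poor stretch downstream of it is known to hold its T cell enhancers. NKX2-5, a homeobox factor of heart development, and TLX3, a homeobox factor of neural development, are normally silent in T cells, but in some T cell leukemias either is activated by a rearrangement between chromosomes 5 and 14 that brings it near the BCL11B enhancers. CCRF-CEM is known to carry such a rearrangement at the NKX2-5 side. Reads across junctions, breakpoints, copy number and transcripts were not analysed here, so the peaks below describe where the mark lay and not which allele carried it.

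In the order of genes in RefSeq, which was used for names only, NKX2-5 lies between BNIP1 and STC2, and TLX3 lies between RANBP17 and NPM1. BCL11B is followed on its downstream side by 27 annotated genes and pseudogenes that code for no protein, 24 of them long noncoding RNAs, before the next protein-coding gene, VRK1. On its other side SETD3 is the next protein-coding gene.

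Of the 3 genes, 2 (BCL11B and TLX3) had a promoter sequence in the RefSeq table of GRCh38.p14, and both are shown because the mark covered the start of one gene and hardly that of the other. Each runs 5′ to 3′ on its gene's strand from 250 bases before the start to 50 bases after it. Capitals mark matches, on either strand, to TGACGT (the core of the cyclic AMP response element), CCAAT and TNAAGTG (a motif bound by NKX2-5). The BCL11B window is chr14:99272148-99272447 on the minus strand and the TLX3 window is chr5:171308998-171309297 on the plus strand, both in GRCh38.p14 and not converted to the build of the peaks.
BCL11B promoter: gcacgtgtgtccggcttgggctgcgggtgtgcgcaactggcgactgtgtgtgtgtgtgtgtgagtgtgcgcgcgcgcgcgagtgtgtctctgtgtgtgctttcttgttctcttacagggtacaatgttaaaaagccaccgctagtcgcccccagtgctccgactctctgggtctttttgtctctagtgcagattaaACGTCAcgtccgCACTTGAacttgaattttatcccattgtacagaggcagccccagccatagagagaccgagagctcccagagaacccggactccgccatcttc
TLX3 promoter: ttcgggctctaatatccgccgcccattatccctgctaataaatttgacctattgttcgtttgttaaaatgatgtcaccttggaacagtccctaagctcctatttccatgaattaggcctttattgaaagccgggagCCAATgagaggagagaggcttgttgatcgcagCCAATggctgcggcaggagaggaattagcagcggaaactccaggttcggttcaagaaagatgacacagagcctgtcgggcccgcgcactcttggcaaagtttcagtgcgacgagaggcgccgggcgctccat
Counted from 1 at the 5′ end, the BCL11B window held 1 TGACGT, at position 197, and 1 TNAAGTG, at position 209. Of 34796 promoters of this length, 7.97% held TGACGT and 10.2% held TNAAGTG. The TLX3 window held CCAAT at positions 137 and 169, a motif found in 34.6% of promoters, and the GC box GGGCGG, not capitalised, at position 19, found in 44.9%. The RUNX motif TGTGGT and, searched likewise on both strands, the GATA motif AGATAA were in neither window. The same held for the ETS motif GGAAGT and for one form of the E-box, with the letters CAGCTG. The core homeobox motif TAATTA and the TATA box, searched as TATAAA, were absent too, which says only that these letters are not there. Of all promoters, 4.86% (TAATTA) to 22.8% (GGAAGT) held these motifs. The BCL11B window had 20 CpG and the TLX3 window 17, against a median of 14.

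The lists differed in length and depth. The authors deposited between 174843 peaks (parental DMSO) and 410176 peaks (knockout 4 h), so the 30000 peaks with the smallest p on chromosomes 1 to 22 and X were used from each library and are called matched peaks. The background pileup solved from each list, in fragments per base, serves as a relative depth. It was 0.603, 0.506 and 0.570 in parental DMSO, 2 h and 4 h, and 0.699, 0.715 and 0.168 in knockout DMSO, 2 h and 4 h. The knockout 4 h library stood apart, since 59.7% of its peaks had a pileup of 1 fragment and 5467 of its peaks reached a −log10 q of 5, against 12656 to 15215 in the others. Results are therefore given with and without it. A rank below is the place of a peak in its own library's list by −log10 p, with 1 the strongest. Fold is the authors' ratio of pileup to local background, with 1 added to each. At backgrounds this low the added 1 makes fold depend on depth, so folds of different libraries are not on one scale.

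H3K27ac covered most of the NKX2-5 gene in all 6 libraries as a wide, shallow peak. In parental DMSO the peak lay at chr5:172656782-172662050, over the gene at 172659 to 172663 kb and beyond its downstream end. Its width was 5269, 5532 and 5508 bp in parental DMSO, 2 h and 4 h, and 5518, 5581 and 5395 bp in knockout DMSO, 2 h and 4 h. Between 0.0167% and 0.123% of the matched peaks of a library were wider. Its fold was 1.92, 1.98 and 1.99 in parental DMSO, 2 h and 4 h, and 1.88, 1.87 and 2.23 in knockout DMSO, 2 h and 4 h. Between 0.257% and 0.6% of matched peaks had a lower fold, so the peak was among the widest and also among the lowest of its list. Its rank ran from 12280 in knockout 2 h to 14104 in knockout 4 h, and the other 4 libraries lay between 12707 and 12890. The upstream edge of the peak stopped short of the gene start as the span gives it by 790 bp in knockout 2 h to 950 bp in parental DMSO. The span gives that start in whole kb, so a gap of this size cannot be told apart from rounding. The 2 genotypes overlapped in width, fold and rank, although without knockout 4 h both knockout folds were just below the 3 parental ones.

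A second NKX2-5 site lay 47.2 kb upstream of the gene, on the STC2 side, at chr5:172709337-172711126 in parental DMSO. It was narrower and steeper than the gene peak, with a width of 1434 to 1796 bp. Its fold was 4.57, 4.79 and 4.41 in parental DMSO, 2 h and 4 h, and 4.89, 4.95 and 3.53 in knockout DMSO, 2 h and 4 h. Its rank was 11928, 10925 and 12033 in parental DMSO, 2 h and 4 h, and 9438, 8839 and 17032 in the matching knockout libraries. The DMSO and 2 h knockout libraries ranked it above all 3 parental ones, and knockout 4 h ranked it lowest. These 2 sites made up all NKX2-5 matched peaks shared by the 6 libraries. Of 5 places with a matched peak, the other 3 were each in 1 library: chr5:172613448-172614485 in knockout 2 h with a fold of 3.94, and one place each in parental 4 h and knockout 4 h, with folds of 2.95 and 2.59 (positions relative to NKX2-5 are in the plot of its peaks). The remaining sites strongest in parental DMSO, 38.1 to 57.0 kb from the gene start, had folds of 1.69 to 2.68 and were outside the matched peaks in every library.

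**Figure D1:**
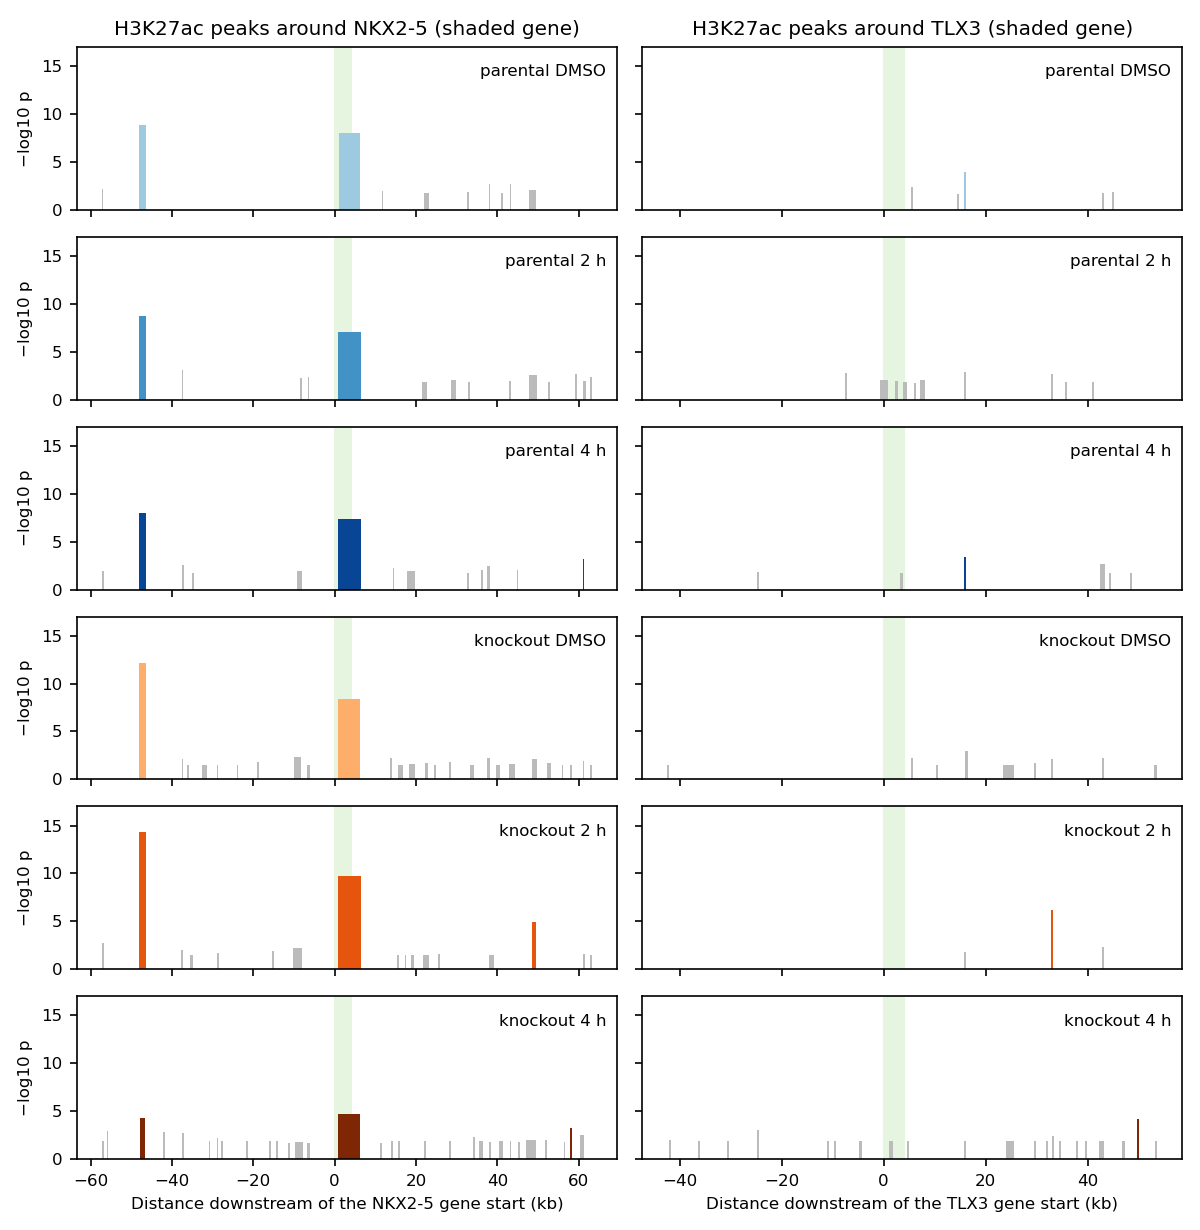
Peaks at the NKX2-5 and TLX3 loci in each of the 6 libraries, with distance downstream of the gene start in kb on the x axis, −log10 p of the peak on the y axis, matched peaks in colour, other deposited peaks in grey and the gene shaded. NKX2-5 had a wide peak over the gene and a narrower one 47.2 kb upstream in all 6 libraries, while no coloured bar touched the TLX3 gene.

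Matched peaks covered 7059, 7229 and 7446 bp of the NKX2-5 span in parental DMSO, 2 h and 4 h, and 7250, 8415 and 7125 bp in knockout DMSO, 2 h and 4 h. Of 25286 genome tiles of the same 120 kb, 1.62% in knockout 4 h to 4.98% in parental DMSO held as much or more. Adjoining stretches of the same length held less, 969 to 3278 bp on the side of lower coordinates and 787 to 1046 bp on the side of higher coordinates. The widest single source of this cover was the gene peak itself.

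TLX3 carried almost none of the mark. No matched peak touched the gene in any library. With all deposited peaks counted, parental 2 h alone had one over the gene start, at chr5:170735239-170736828, with a fold of 2.14 and a rank of 110715, far outside the matched peaks. The nearest deposited peak to the gene start was 5.46 kb away in parental DMSO, 3.40 kb in parental 4 h, 5.46 kb in knockout DMSO, 15.9 kb in knockout 2 h and 1.05 kb in knockout 4 h. All of these nearest peaks had folds of 1.71 to 2.47.

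The site with the largest −log10 p of the TLX3 locus in parental DMSO lay 16.0 kb downstream of the gene start, at chr5:170751857-170752178. Its fold was 3.42, 2.77 and 3.07 in parental DMSO, 2 h and 4 h, and 2.77, 2.02 and 1.71 in knockout DMSO, 2 h and 4 h. It was a matched peak in parental DMSO and parental 4 h, at ranks 22495 and 26818, and in no other library. Knockout 2 h had its own matched peak at chr5:170768892-170769235, with a fold of 4.60 and a rank of 16907, and knockout 4 h had one at chr5:170785869-170786085, with a fold of 3.22. None of the 3 places was shared by more than 2 libraries. The other named TLX3 sites had folds of 1.71 to 2.57 and ranks below the matched peaks.

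Covered length at TLX3 was 322, 0 and 309 bp in parental DMSO, 2 h and 4 h, and 0, 344 and 217 bp in knockout DMSO, 2 h and 4 h. A tile of 100 kb without any matched peak was common, at 44.4% of 30344 tiles in knockout 4 h to 54.3% in knockout 2 h, so an almost unmarked span of this length is an ordinary one. The stretch beyond the span on the NPM1 side held 1 matched peak in each library, covering 1254 to 1419 bp.

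The BCL11B locus, by far the longest span, held the most matched peaks and the most covered length of the 3, and most of that length lay in the desert rather than in the gene. As a share of the span, matched peaks covered less of BCL11B (1.79% to 4.49%) than of NKX2-5 (5.88% to 7.01%) in all 6 libraries, whereas with all deposited peaks BCL11B had the higher share in the 3 parental libraries and knockout 2 h. Matched peaks numbered 38, 35 and 38 in parental DMSO, 2 h and 4 h, and 44, 53 and 24 in knockout DMSO, 2 h and 4 h. They covered 51806, 40451 and 48780 bp in the parental libraries, and 55413, 61017 and 24361 bp in the knockout libraries. The desert held 43552, 33199 and 40398 bp of this in the parental libraries and 48162, 52703 and 20606 bp in the knockout libraries. The gene, 103 kb long, held 6884, 6739 and 6961 bp in the parental libraries and 6399, 6838 and 3254 bp in the knockout libraries. Within BCL11B the order per length was also the reverse, since the gene was covered over 3.16% to 6.76% and the desert over 1.67% to 4.27%.

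This cover was high but not extreme. Of 2221 tiles of the same 1360 kb, 5.76%, 7.16% and 5.76% held as much or more in the parental libraries, and 4.64%, 4.14% and 11.3% in the knockout libraries. The adjoining stretch of the same length at higher coordinates held 45242 to 61356 bp in the 5 libraries without knockout 4 h, which overlapped the BCL11B values. The adjoining stretch at lower coordinates held 16891 to 29442 bp in those 5 libraries, below the BCL11B value of each.

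**Figure D2:**
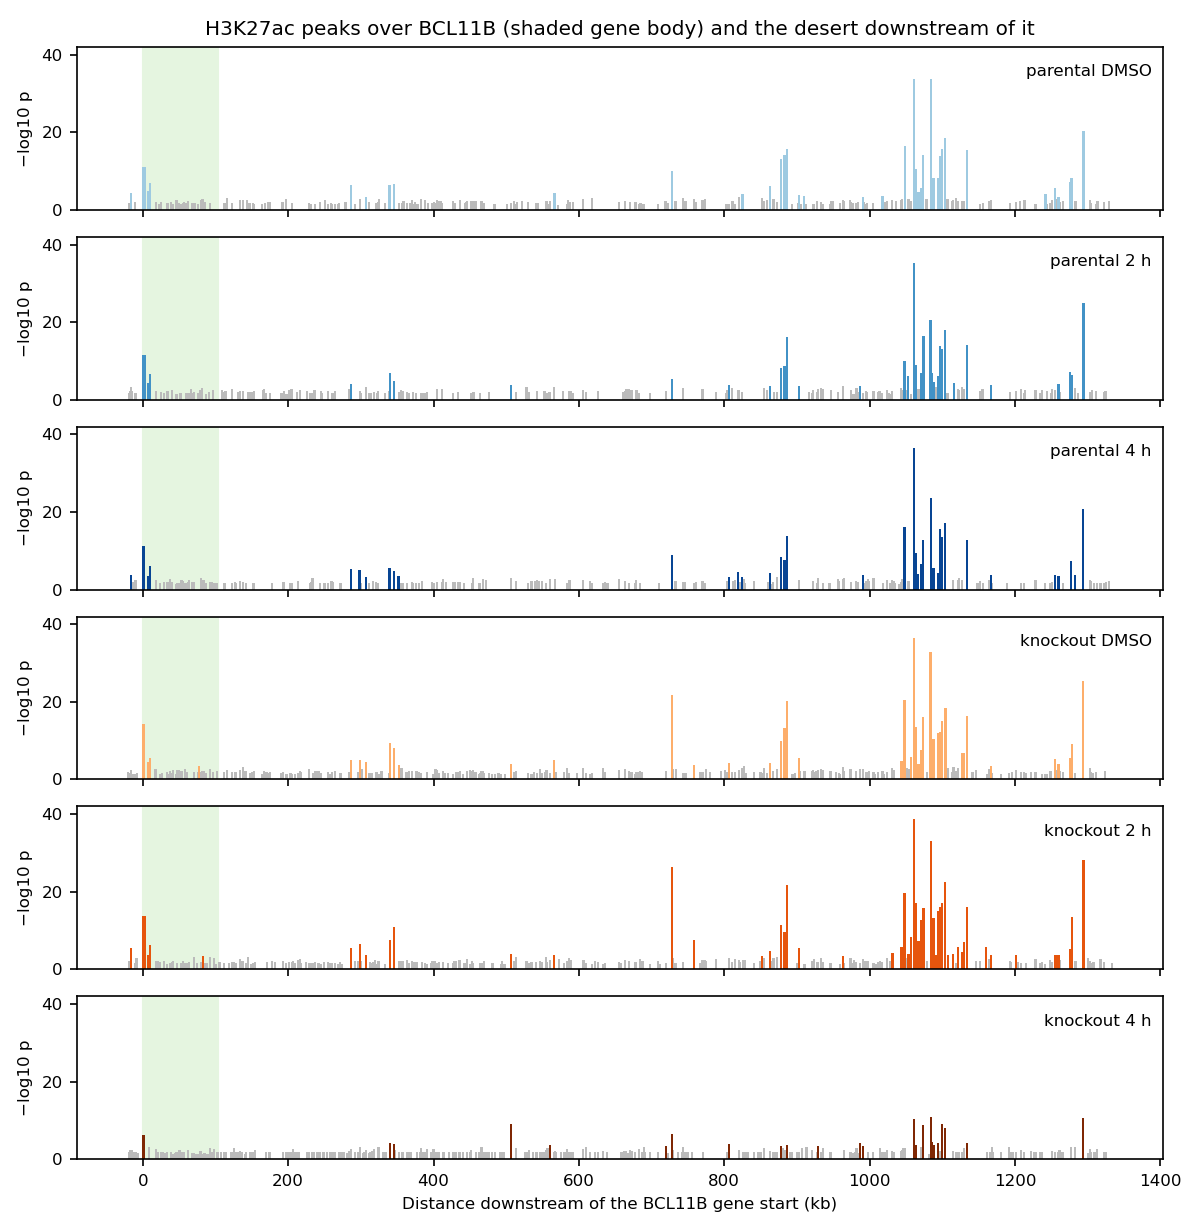
Peaks over BCL11B and its desert in each of the 6 libraries, with distance downstream of the gene start in kb on the x axis, −log10 p of the peak on the y axis, matched peaks in colour, other deposited peaks in grey and the gene body shaded. In each of the 6 libraries the tallest bar stood 1061 or 1084 kb downstream of the gene start.

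At the BCL11B start all 6 libraries had a wide matched peak, at chr14:99734284-99738869 in parental DMSO, and it reached over the gene start given by the span in each. Its width was 4586, 4225 and 4569 bp in parental DMSO, 2 h and 4 h, and 4043, 4638 and 3755 bp in knockout DMSO, 2 h and 4 h. Its fold was 2.33, 2.62 and 2.51 in the parental libraries and 2.54, 2.36 and 2.80 in the knockout libraries. Its rank was 9983, 8705 and 9606 in the parental libraries and 8088, 9280 and 8369 in the knockout libraries. The 2 genotypes overlapped in width, fold and rank, and neither treated parental library ranked the peak below parental DMSO.

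The 5 BCL11B peaks with the largest −log10 p in parental DMSO all lay in the desert, 1048 to 1294 kb downstream of the gene start. The one 1084 kb downstream, at chr14:98653839-98654216, was 378 bp wide there. Its fold was 6.36, 5.64 and 6.69 in parental DMSO, 2 h and 4 h, and 5.40, 5.43 and 5.50 in knockout DMSO, 2 h and 4 h. Its rank was 1317, 4364 and 4162 in the parental libraries, and 1510, 2050 and 2226 in the knockout libraries. By rank the 2 treated parental libraries stood below the other 4. By fold every parental library was above every knockout library, with parental 4 h the highest of the 6. Placed by fold in its own library's list, the peak stood at 2925, 5427 and 2553 in the parental libraries. In the knockout libraries it stood at 6119, 6343 and 2386, so knockout 4 h then placed it highest.

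The peak 1061 kb downstream, at chr14:98676143-98677050, stood near the top of the list by −log10 p. It ranked 1328, 861 and 1183 in the parental libraries, and 989, 1130 and 2547 in the knockout libraries. Its fold was 4.48, 5.52 and 5.42 in the parental libraries and 4.36, 4.42 and 4.49 in the knockout libraries. The 2 treated parental libraries were thus highest by fold. Parental DMSO was also above knockout DMSO and knockout 2 h, and just below knockout 4 h. The peak 1294 kb downstream, at chr14:98441855-98445399, was the farthest strong one from the gene. Its fold was 3.65, 4.72 and 4.47 in the parental libraries and 4.32, 4.58 and 5.22 in the knockout libraries.

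The peak 1104 kb downstream, at chr14:98633046-98634424, had lower folds, 2.42 in knockout DMSO to 3.06 in knockout 4 h. Its rank lay between 4746 and 6570 in all 6 libraries. The peak 1048 kb downstream, at chr14:98689390-98690254, had folds of 5.36, 5.19 and 6.21 in the parental libraries and 5.33, 5.30 and 2.72 in the knockout libraries. It ranked 5055 to 9831 in the 5 libraries other than knockout 4 h and 50712 in that library, where it was no longer a matched peak.

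**Figure D3:**
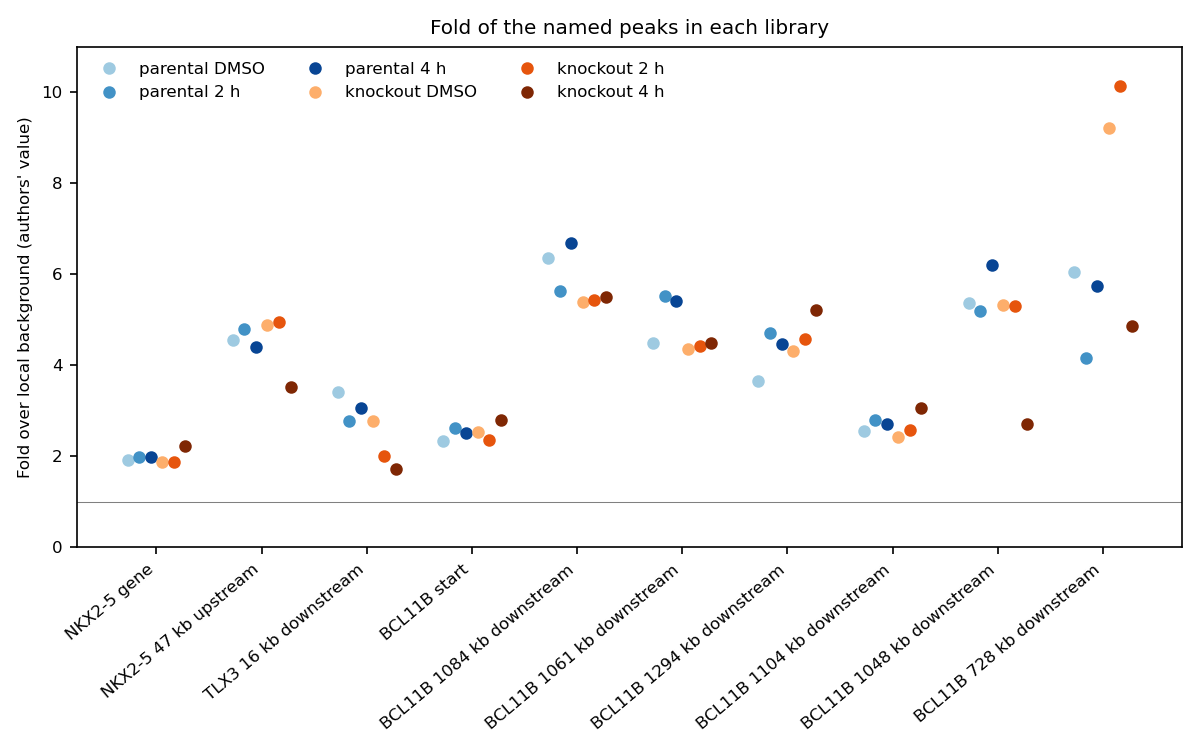
Fold over local background, the authors' value, of 10 named peaks in each of the 6 libraries, with 1 point per library and a line at a fold of 1. At most sites the libraries were mixed, while at the BCL11B site 728 kb downstream knockout DMSO and knockout 2 h stood at 9.22 and 10.1, above the other 4 libraries.

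Matched peaks no more than 12.5 kb apart were joined into clusters, and the clusters of the genome were ordered by the length their peaks covered. In every library the longest BCL11B cluster had its midpoint between 1074 and 1083 kb downstream of the gene start, not at the gene. It ranked 24, 26 and 35 in parental DMSO, 2 h and 4 h, of 21867, 23279 and 22551 clusters. In knockout DMSO, 2 h and 4 h it ranked 15, 5 and 43, of 21943, 21285 and 25050 clusters. It covered 17204, 14070 and 15011 bp in the parental libraries, and 22104, 30053 and 8825 bp in the knockout libraries. Knockout DMSO and knockout 2 h were above all 3 parental libraries, and these 2 libraries also had the highest background pileup. Whether depth had a part in this order was not tested.

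The cluster differed between libraries at its edges, and also in cover within the stretch common to all. In parental DMSO it ran from the peak 1104 kb downstream to the peak 1048 kb downstream, chr14:98633046-98690254, with 12 peaks. In parental 2 h its first peak began at 98621891 and in knockout 2 h at 98602046, where it took in 23 peaks over 105 kb. In knockout 4 h it ended at 98677081, with 9 peaks over 44.0 kb. The stretch common to all, chr14:98633072-98677081, was covered over 16313, 12177 and 14318 bp in the parental libraries and 17242, 15179 and 8798 bp in the knockout libraries. Over this stretch knockout 2 h lay between the parental values. The rest of its cover lay outside the common stretch. The cluster at the gene start was next, ranking 361, 281 and 277 in the parental libraries and 490, 463 and 686 in the knockout libraries.

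NKX2-5 and TLX3 had no such cluster. The NKX2-5 gene peak stood alone within the joining distance, and ranked 910, 518 and 641 among the clusters in the parental libraries and 809, 867 and 252 in the knockout libraries. The highest rank of a TLX3 cluster was 19189, in knockout 2 h.

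Long parts of the BCL11B locus had no matched peak in any of the 6 libraries. The longest was chr14:99452654-99654874, 202 kb long and between 83.1 and 285 kb downstream of the gene start, at the far end of the gene and the near end of the desert. The next were chr14:99231494-99385668 at 154 kb and chr14:99018548-99170812 at 152 kb, both in the desert. Within the gene, chr14:99660906-99727110 was free of matched peaks over 66.2 kb. Of 67 places with a matched peak, 16 were marked in all 6 libraries, 26 in all of the 5 other than knockout 4 h, and 19 in 1 library alone.

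To compare libraries peak by peak, 18835 regions were made by joining the first 15000 peaks by p of every library except knockout 4 h, and each was ranked in every library by its −log10 p. In all 30 regions were members: 28 at BCL11B, 2 at NKX2-5 and 0 at TLX3. A region could enter the set through 1 library alone, which favours that library in a comparison, at members and at all other regions. Some members ranked within the first 15000 regions in 1 library only. These were chr14:99450383-99452386 (parental DMSO), chr14:98684618-98684942 (parental 2 h), chr14:98610868-98611720 (knockout DMSO), and chr14:98670519-98670815, chr14:98680975-98681476 and chr14:98979203-98979543 (knockout 2 h). The BCL11B regions were of middling strength, with a median rank of 11052 against 9587 for all regions, and 2 of 28, or 7.14%, ranked within the first 3000 against 15.6% of all regions. A region was called stronger or weaker when its rank differed by over 3000 places between 2 libraries. Since p grows with depth, each count is also given with regions ranked by fold, although fold is not free of depth either. All called regions were at BCL11B, and neither NKX2-5 region passed by −log10 p or by fold in any comparison.

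**Figure D4:**
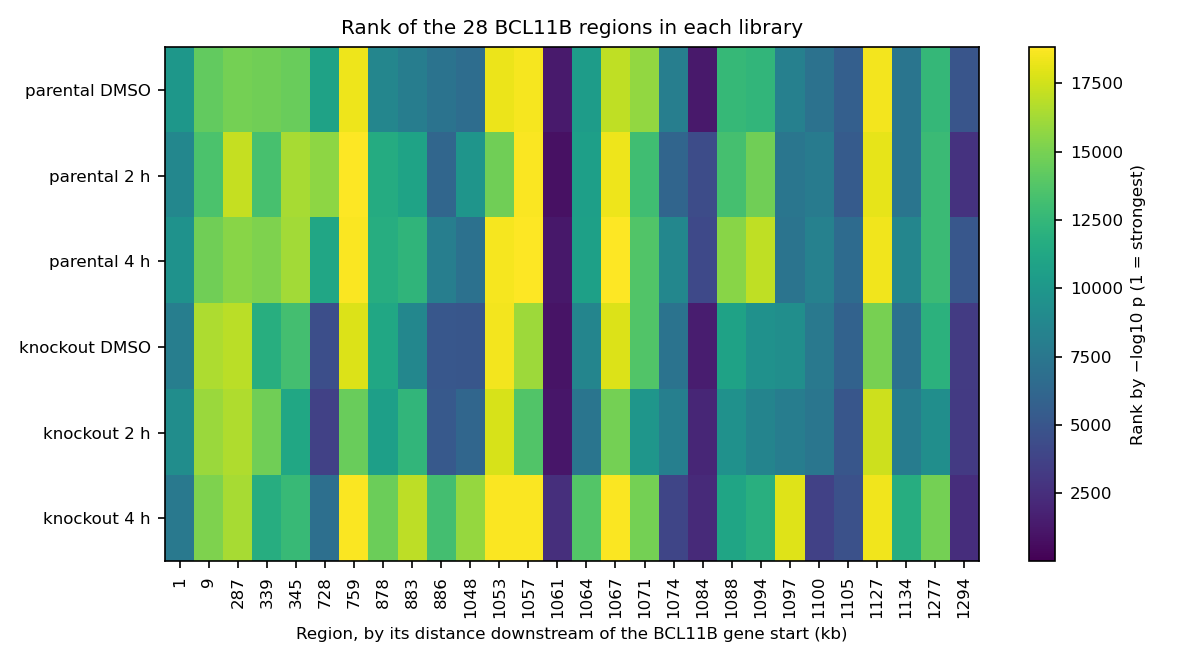
Rank by −log10 p of the 28 BCL11B regions (columns, ordered and labelled by distance downstream of the gene start in kb) in each of the 6 libraries, with dark colours for strong regions. The regions 1061 and 1084 kb downstream were dark in all 6 libraries, and the region 728 kb downstream was darker in the 3 knockout libraries than in the 3 parental ones.

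Camptothecin for 2 h in parental cells left most regions in place. Of the 30, 1 was stronger and 3 were weaker than in parental DMSO, and over all regions 16.9% were called, 8.79% stronger and 8.10% weaker. The members called, 13.3%, were near that background. By fold, 4 were stronger and 4 weaker, against 11.3% and 11.6% of all regions (22.9% in both directions), and 2 calls were common to both rankings. The region chr14:99009977-99010725, 728 kb downstream, fell by 4796 places, the widest fall, with a fold of 6.06 in DMSO and 4.16 after 2 h. The others weaker were the sites 1048 and 1084 kb downstream, of which the first fell by 3112 places and the second fell by 3046 places. The one stronger region, chr14:98684618-98684942, rose 3540 places, with folds of 2.43 and 4.07. It entered the region set through parental 2 h alone, which favours that library here, so its rise is not separate evidence of a gain.

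After 4 h in parental cells 0 regions were stronger and 3 were weaker than in parental DMSO, where 14.6% of all regions were called, 7.13% stronger and 7.45% weaker. By fold, 2 were stronger and 2 weaker, against 9.72% and 9.87% of all regions, or 19.6% in both directions. The weaker regions by −log10 p were chr14:98643802-98644236 (which fell by 4590 places), chr14:98854747-98855283 (which fell by 4342 places) and chr14:98859695-98860499 (which fell by 3111 places). The latter 2 were weaker by fold as well, at 4.78 in DMSO and 3.91 after 4 h for the first, and 6.18 and 5.20 for the second. Both comparisons use the same parental DMSO library.

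In knockout cells after 2 h, 2 regions were stronger and 1 was weaker than in knockout DMSO, against 9.19% of all regions called, 4.50% stronger and 4.68% weaker. By fold, 2 were stronger and 2 weaker, against 8.22% and 7.80% of all, or 16.0% in both directions. The stronger ones were chr14:98666279-98667479 (3835 places) and chr14:98979203-98979543 (3301 places), the second with folds of 3.30 and 5.28. The second entered the region set through knockout 2 h alone, which favours that library here, so its rise is not separate evidence of a gain. The weaker one, chr14:98854747-98855283, fell by 3643 places, with folds of 4.31 and 3.56. That region was therefore lower in fold in every treated library than in the DMSO library of its genotype, with 2.51 in knockout 4 h.

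Knockout 4 h against knockout DMSO gave the most calls of the 4 comparisons with DMSO, 2 stronger and 8 weaker of 30, but 31.3% of all regions were called as well, 15.2% stronger and 16.1% weaker. By fold 10 were stronger and 8 weaker, against 26.8% and 22.9% of all regions, or 49.7% in both directions. The site 1048 kb downstream fell by 10767 places, with folds of 5.33 and 2.72. The next widest falls were those of chr14:98640420-98641897, which fell by 8580 places, chr14:98854747-98855283, which fell by 8234 places, and chr14:98851470-98852576, which fell by 8140 places. The last of the widest 5, chr14:98673282-98674780, fell by 5243 places. The low depth of this library, 0.168 against 0.699 fragments per base, goes with the comparison, and its part in the result was not tested.

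**Figure D5:**
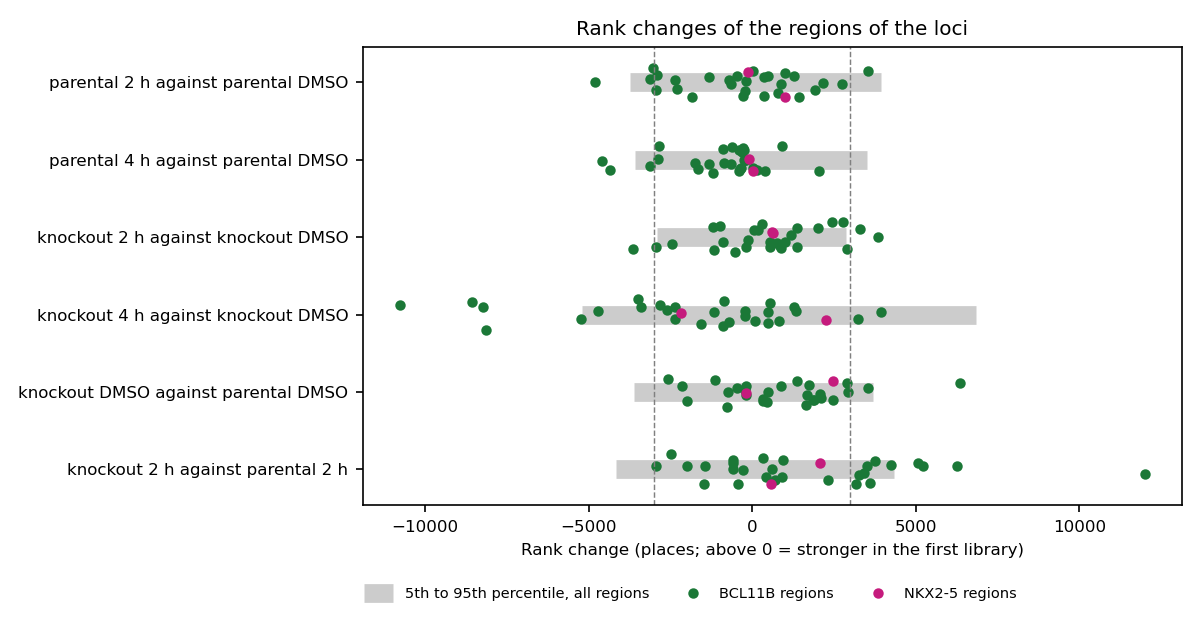
Rank change of the 28 BCL11B and 2 NKX2-5 regions in 6 comparisons, in places, above 0 where the first library ranked the region higher, with grey bars for the 5th to 95th percentile of all 18835 regions and dashed lines at 3000 places. The member that rose most, by 11998 places in knockout 2 h against parental 2 h, lay 728 kb downstream of the BCL11B start.

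Between the genotypes under DMSO, 2 regions were stronger in the knockout and 0 weaker, against 15.0% of all regions called, 7.63% stronger and 7.35% weaker. By fold, 2 were stronger and 2 weaker, against 10.2% and 9.33%, or 19.5% in both directions. Both stronger regions passed by −log10 p and by fold. By −log10 p the one 728 kb downstream differed by 6344 places and chr14:98610868-98611720 by 3539 places. The folds of the latter were 2.42 in parental and 3.98 in knockout DMSO. It entered the region set through knockout DMSO alone, which favours that library here, so its call is not separate evidence of a difference. After 2 h, 11 of 30 regions were stronger in the knockout and 0 weaker, while 20.0% of all regions were called, 10.0% stronger and 10.1% weaker. The count of 11, or 36.7%, was well above the 10.0% of all regions stronger. Of the 11, 7 were among the 16 regions of the longest BCL11B cluster as it lay in knockout 2 h. Neighbours in 1 cluster are not separate results, so the 2 shares are not like for like. By fold it was 5 stronger and 3 weaker, against 13.1% and 12.3% of all regions (25.4% in both directions), and 4 calls were common to both rankings. The background pileup of the libraries compared was 0.715 and 0.506 fragments per base, the widest gap in depth among the 5 libraries other than knockout 4 h, and its part in the excess was not tested.

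The widest of these 11 was the region 728 kb downstream, which rose 11998 places, followed by chr14:98643802-98644236 with 6253, chr14:99391892-99393848 with 5217, chr14:98680975-98681476 with 5062 and chr14:98979203-98979543 with 4252.5 places. The fourth and the fifth of them entered the region set through knockout 2 h alone. So did chr14:98670519-98670815, also among these 11. By fold the first, the third and the fifth were called as well. Their folds in parental 2 h and knockout 2 h were 4.16 and 10.1 for the first, and 3.61 and 4.68 for the third. The fifth had no deposited peak in parental 2 h and a fold of 5.28 in knockout 2 h.

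The region 728 kb downstream, chr14:99009977-99010725, was the one member whose ranks separated the genotypes by over 3000 places in the 5 libraries other than knockout 4 h. Of all regions, 1.64% did so with the knockout stronger and 0.669% with the parental stronger. Its fold was 6.06, 4.16 and 5.75 in parental DMSO, 2 h and 4 h, and 9.22, 10.1 and 4.88 in knockout DMSO, 2 h and 4 h. Ranked by fold over the 18835 regions it stood at 3683, 12123 and 4951 in the parental libraries and at 211, 106 and 4203 in the knockout libraries. By fold it separated the genotypes by 3472 places without knockout 4 h, and with that library the 2 genotypes overlapped, at 4203 against 3683. By −log10 p its ranks were 10872, 15668 and 11126 in the parental libraries and 4528, 3670 and 6877 in the knockout libraries, which did not overlap. It is a narrow peak, 733 bp in parental DMSO and 551 bp in knockout 2 h, with no other matched peak within 12.5 kb in the libraries other than knockout 4 h.

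Orderings without a minimum gap were counted too, after the values had been seen. In 11 of the 28 BCL11B regions knockout DMSO and knockout 2 h both ranked above all 3 parental libraries, against 15.7% of all regions, and in 1 of 28 the reverse held, against 16.0%. Ranked by fold the counts were 7 and 3, against 12.0% and 17.1%. The 11 regions by −log10 p included chr14:98610868-98611720, which entered the region set through knockout DMSO alone. They also included chr14:98680975-98681476 and chr14:98979203-98979543, which entered through knockout 2 h alone. Of the 2 NKX2-5 regions, the upstream one had the knockout order by −log10 p. In 13 of 28 BCL11B regions both treated parental libraries ranked below parental DMSO, knockout DMSO and knockout 2 h, against 15.4% of all regions, and in 1 they ranked above, against 16.0%. Of the 13, 8 were among the 16 regions of the longest cluster as it lay in knockout 2 h. The 13 included chr14:98670519-98670815, chr14:98680975-98681476 and chr14:98979203-98979543, all of which entered through knockout 2 h alone. Entry through a library in which a region is high favours both orders, so these regions are not separate evidence for them. By fold the counts were 6 and 5, against 12.1% and 16.8%. With a gap of over 3000 places the counts by −log10 p were 0 of 28 in both directions, against 0.478% weaker and 0.377% stronger among all regions. The 2 orderings share libraries and are not separate results. The order of depth was the same as that of the first count of each, with background pileup of 0.506 and 0.570 in the treated parental libraries, 0.603 in parental DMSO, and 0.699 and 0.715 in the knockout. Whether depth set these counts was not tested. Ranked by fold each count was closer to its background, but fold depends on depth too, so this does not bear on the question.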

How the data were processed

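H3K27ac ChIP-seq of 6 libraries, 1 per group, was used as lists of broad peaks on hg19, called in each library by itself. Tools listed, without their roles, in the submitters' processing notes are MACS2 2.1.2, BWA 0.7.17, Picard 2.9.2, SAMtools 1.8, Trimmomatic 0.39 and Trim Galore 0.6.2. Settings and the control sample (input or IgG) were not stated in the sources used here. Fold is the authors' deposited ratio of pileup to local background, with 1 added to each. The −log10 p and −log10 q are the authors' deposited values. The deposited score is about 10 times −log10 q and only checked that column. These values are averages over a peak, and served to order or select peaks inside their own list.

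Matched peaks, regions, clusters and ranks were computed in Python 3.11.15 with pandas 2.3.3 and numpy 2.4.6. Regions without a deposited peak in a library shared the lowest rank there. An overlap of 1 bp made a peak a member, and coordinates are 1-based. MACS2 computes fold and p from pileup and background, so the commonest pair of them in each list was solved for both. The steps were tested on simulated lists. No difference between groups was tested. Sites named were the 5 peaks of each locus with the largest −log10 p in parental DMSO, the peak at or nearest each gene start, up to 5 called regions per comparison with the widest gap, the ends of the longest cluster and the widest unmarked stretches; single peaks of 1 library at TLX3 and NKX2-5 were named after their values were seen. The loci and these choices were made with earlier results of these data known. The gene lists planned for an hg19 annotation were not run. Alternatives were list length, joining distance, region set, rank gap, overlap, tile position and ranking by fold.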

Additional observations from a re-analysis of the deposited data

Results flagged for a closer look

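Some values moved one way after camptothecin in parental cells and the other way in knockout cells. Each genotype has 1 library per time, so none of these differences was tested. After 2 h the matched peaks of BCL11B changed by -11355 bp of cover in parental cells and by 5604 bp in knockout cells, and those of TLX3 changed by -322 and 344 bp. The opposite directions at BCL11B held for the 30000 strongest peaks alone: with all deposited peaks, the 15000 strongest, or a −log10 q of at least 5, cover fell in both genotypes, from 255781 to 249281 bp, from 35089 to 32932 bp and from 34236 to 32932 bp in the knockout. At TLX3 the directions turned with all deposited peaks, from 1252 to 5733 bp in parental and from 4912 to 1004 bp in knockout cells, and the other 2 settings left 0 bp in every library. At chr14:99009977-99010725, 728 kb downstream of the BCL11B start, the rank changed by -4796 places in parental and 858 in knockout cells. At chr14:98979203-98979543, which ranked within the first 15000 regions in knockout 2 h alone, it changed by -464.5 and 3301 places.

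After 4 h, with the knockout 4 h library of low depth on one side, the NKX2-5 cover changed by 387 bp in parental cells and by -125 bp in the knockout, and the TLX3 cover by -13 and 217 bp. With all deposited peaks TLX3 cover rose in both genotypes, from 1252 to 2065 bp and from 4912 to 7342 bp, while the NKX2-5 directions were the same under all 3 other settings. A group of 4 BCL11B regions went opposite ways. The changes in parental and knockout cells were 29 and -3497 places at chr14:98610868-98611720, and -1190 and 3932 places at chr14:98636785-98639066. They were 902 and -8580 places at chr14:98640420-98641897, and -660 and 3238 places at chr14:98662500-98665428. The parental changes at 4 h of these 4 regions were all below the 3000 places used for a call. The first of these regions entered the region set through knockout DMSO alone, which favours a fall from that library.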

How the results depend on the processing

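No paired analysis was possible because each group has 1 library and the labels give no replicate numbers, and leaving out a replicate was not possible for the same reason. Values are given below in the order parental DMSO, 2 h and 4 h, then knockout DMSO, 2 h and 4 h. Covered length moved with the number of peaks taken. With all deposited peaks NKX2-5 had 11341, 13882, 13101, 24448, 17461 and 20844 bp, TLX3 1252, 5733, 2065, 4912, 1004 and 7342 bp, and BCL11B 196216, 174732, 170577, 255781, 249281 and 187157 bp. With the 15000 strongest peaks BCL11B had 40559, 28368, 30500, 35089, 32932 and 11949 bp, TLX3 0 bp in every library, and NKX2-5 7179, 7377 and 5395 bp in parental 4 h, knockout 2 h and knockout 4 h. With a −log10 q of at least 5 BCL11B had 31907, 22836, 26420, 34236, 32932 and 7594 bp, TLX3 again 0 bp, and NKX2-5 1697 bp in parental 2 h, 7179 bp in parental 4 h, 7377 bp in knockout 2 h and 0 bp in knockout 4 h. So the NKX2-5 gene peak was below this limit in parental 2 h and knockout 4 h.

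The cluster rank with peaks joined within 5000 bp moved to 41 in parental 2 h and 14 in knockout 2 h, and within 25000 bp to 113, 66, 141, 28, 21 and 172. Ordered by length times excess fold it moved to 46 in parental DMSO, 26 in knockout DMSO and 11 in knockout 2 h. Shifted tiles left all 18 values close to those reported. With all deposited peaks the share of tiles with as much or more was 15.2%, 11.8%, 13.3%, 7.63%, 12.6% and 7.23% for NKX2-5 and 51.2%, 23.4%, 41.6%, 39.1%, 62.9% and 29.9% for TLX3, and for BCL11B it moved to 4.14% in parental DMSO, 7.83% in parental 4 h and 9.19% in knockout 4 h.

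Counts of called regions are given in the order parental 2 h, parental 4 h, knockout 2 h and knockout 4 h, each against DMSO, then knockout against parental under DMSO and after 2 h, each set beside the share of all regions called. A rank gap of 1500 gave 12, 8, 9, 17, 16 and 16 of 30, against 39.8%, 38.4%, 29.7%, 56.2%, 37.1% and 42.8%, and the last comparison then had 13 stronger and 3 weaker. A gap of 5000 gave 0, 0, 0, 5, 1 and 4, against 4.29%, 3.05%, 1.48%, 14.4%, 3.84% and 6.23%. Regions from the 30000 strongest peaks gave 41, 35, 34, 55, 39 and 46 of 70, against 60.2%, 58.3%, 53.7%, 71.0%, 57.1% and 61.2%. Ranking by fold gave 8 for parental 2 h, 18 for knockout 4 h and 4 for the genotypes under DMSO, against 22.9%, 49.7% and 19.5%. Regions from all 6 libraries gave 22 of 31 for knockout 4 h and 4 for the genotypes under DMSO, against 58.7% and 16.9%. An overlap of at least 100 bp left all 6 counts close to those reported. The excess of stronger BCL11B regions in knockout 2 h over parental 2 h was smaller with ranking by fold, at 5 stronger and 3 weaker.

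Depth limits the knockout 4 h library most, and reads, and so error from counting, were not in the lists.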
